A study of Rattus norvegicus with 4 samples.

Results

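Igkc and Ighm encode the constant parts of the immunoglobulin kappa light chain and of the mu heavy chain, and their transcripts were measured in messenger RNA sequenced from rat liver. They are the entries of the deposited gene count table whose symbol is Igkc or Ighm, 2 of 32545 listed entries. They were selected on the measured log2 change and p of sleep restriction against forced activity in these same libraries, so their difference between the groups is described here without a test.

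The samples were livers of rats under sleep restriction added to forced activity (2 libraries) and of rats under forced activity alone (2 libraries). Both groups were therefore under forced activity, and the added sleep restriction is the difference that the labels name. Strain, sex, age, the length of the restriction and the number of animals per library are not given in the sources used here. Nothing says that the libraries of a group came from separate animals, so any p-value measures only the spread between these libraries, which may be technical.

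The counts summed to 515682.4 and 520275.6 in sleep restriction 1 and 2, and to 508202.6 and 520204.5 in forced activity 1 and 2. Values are multiples of 0.1 in all columns except sleep restriction 2, where 99.99% of the values above 0 are whole. The replicate 1 libraries had 14105 and 14008 entries above 0, against 10952 and 11943 in the replicate 2 libraries. Albumin, the defining hepatocyte transcript, held between 11.6% and 13.6% of the counts.

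An antibody is built from paired heavy and light chains, and each chain joins a variable part, which binds antigen, to a constant part. In B cells the mu chain is first placed on the membrane as the antigen receptor, and plasma cells secrete it in joined units, IgM. Plasma cells make far more immunoglobulin RNA per cell than resting B cells. The liver is not a main site of antibody production, but it holds B cells and plasma cells among its resident and circulating lymphocytes, and in rats hepatocytes carry polymeric antibody into bile.

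Messenger RNA of a full rearranged chain starts at the promoter of the joined variable segment, not at the constant part. Such promoters are known for the octamer, a motif bound by the Oct factors of B cells. RefSeq's promoter table (build GRCr8, 250 bases before and 50 after the annotated start) holds 3 entries with a kappa variable symbol. They are shown because transcripts of rearranged kappa chains begin at promoters of variable segments. Capitals mark ATTTGCAT, searched on both strands together with its reverse complement ATGCAAAT. The 3 entries lie at chr4:103029329-103029628 (minus strand), chr4:103389072-103389371 (minus strand) and chr19:3099291-3099590 (plus strand). Igkvl15, the last, is thus not on chromosome 4, where the Igkc entry lies, and its use by Igkc transcripts is not shown here.
Igkv5-45l1: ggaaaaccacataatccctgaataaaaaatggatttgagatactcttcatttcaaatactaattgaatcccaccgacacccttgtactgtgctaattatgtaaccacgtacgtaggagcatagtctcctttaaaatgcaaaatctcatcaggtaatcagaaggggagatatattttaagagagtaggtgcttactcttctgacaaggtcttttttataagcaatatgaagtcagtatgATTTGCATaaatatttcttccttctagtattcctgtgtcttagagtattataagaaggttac
Igkv8-30l1: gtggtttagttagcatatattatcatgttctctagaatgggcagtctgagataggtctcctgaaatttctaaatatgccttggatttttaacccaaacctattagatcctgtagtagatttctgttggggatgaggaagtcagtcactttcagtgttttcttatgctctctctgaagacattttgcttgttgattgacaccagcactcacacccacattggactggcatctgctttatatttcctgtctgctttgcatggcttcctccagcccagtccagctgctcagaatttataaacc
Igkvl15: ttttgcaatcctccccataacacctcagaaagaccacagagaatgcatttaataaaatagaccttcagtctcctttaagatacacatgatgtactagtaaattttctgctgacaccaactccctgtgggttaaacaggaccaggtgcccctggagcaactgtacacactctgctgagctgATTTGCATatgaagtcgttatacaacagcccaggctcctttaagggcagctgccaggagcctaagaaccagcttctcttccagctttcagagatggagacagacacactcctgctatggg
The octamer was found in Igkv5-45l1, starting 12 bases before the annotated start, and in Igkvl15, starting 70 bases before it. It was not found in these letters of Igkv8-30l1. It was held by 595 of all 33469 RefSeq promoters, or 1.78%. No counts are given for these variable segments, and the match describes the sequence alone.

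Igkc (ENSRNOG00000049829.2) had 17.6 and 18 counts in the sleep restriction libraries, against 50.3 and 49.4 in the forced activity libraries. The replicates of a group lay within 1 count of each other, and the groups did not overlap. As normalised read count (CPM, counts per 1000000 counts at tested genes after TMM scaling), the level averaged 36.2 ± 0.569 under sleep restriction and 101 ± 7.35 under forced activity (SD, n = 2 each). The mean level was 64.3% lower under sleep restriction, and edgeR's log2 change, which is drawn toward 0 by a prior count of 2, was -1.36. The difference was about equal in the replicate 1 libraries, at -1.43, and in the replicate 2 libraries, at -1.29, although these pairs differ in how many entries were detected.

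Ighm (ENSRNOG00000034190.6) had 17.2 and 26 counts in the sleep restriction libraries, against 44.6 and 55.5 in the forced activity libraries. The higher sleep restriction library was still below the lower forced activity library, so these groups did not overlap either. The level averaged 44.0 ± 12.7 CPM under sleep restriction and 101 ± 9.60 CPM under forced activity (SD, n = 2 each), which is 56.6% lower, and edgeR's log2 change was -1.15. That change was -1.36 in the replicate 1 libraries and -0.99 in the replicate 2 libraries. Leaving out sleep restriction 2 gave -1.47 and leaving out sleep restriction 1 gave -0.91, so the size for Ighm depends on which of these libraries is kept more than that for Igkc does.

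**Figure D1:**
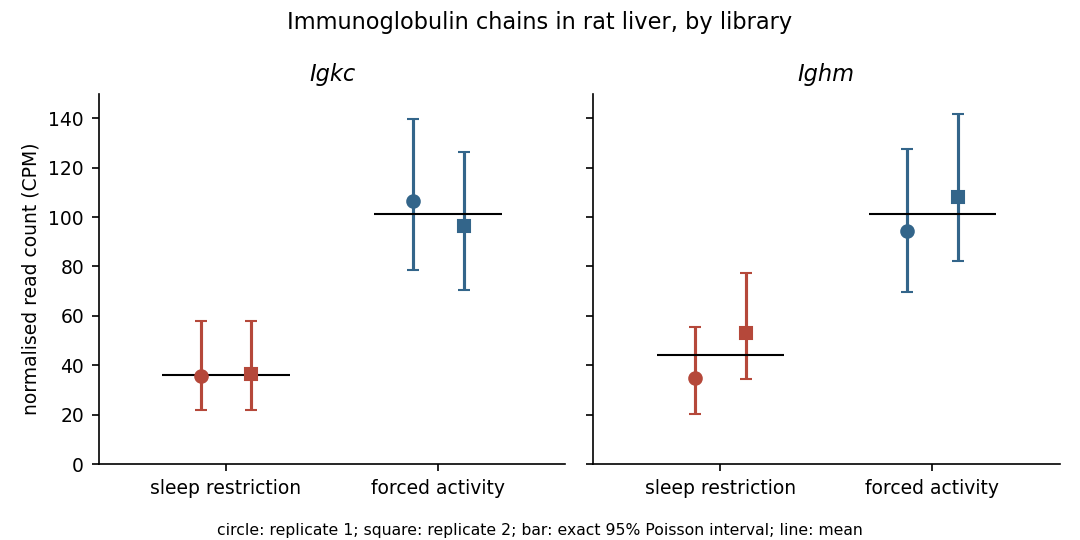
Normalised read count (CPM) of Igkc and Ighm in each library, with sleep restriction left of forced activity. Points are libraries, bars are exact 95% Poisson intervals and lines are group means. Both sleep restriction libraries lie below both forced activity libraries for each gene, and the sleep restriction libraries are closer together for Igkc than for Ighm.

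The counts behind these levels are small. For Igkc the exact 95% Poisson interval was 10.7 to 28.4 counts in each sleep restriction library, against 37.1 to 65.9 and 36.3 to 64.8 in the forced activity libraries. For Ighm it was 9.90 to 27.2 and 16.98 to 38.1 under sleep restriction, against 32.8 to 60.2 and 42.3 to 72.7 under forced activity, so the interval of sleep restriction 2 reached into that of forced activity 1. These intervals cover counting error only, and were taken on counts rounded to whole numbers.

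How far the 2 genes stand from the rest can be read against the whole table. Of 4986 genes that passed the expression filter, 761, or 15.3%, also had both sleep restriction libraries below both forced activity libraries, and 17.2% had both above. The median log2 change of all tested genes was 0.00, and 13 genes, Igkc and Ighm among them, had one below -1. In edgeR's quasi-likelihood test with Benjamini-Hochberg adjustment over all of them, 0.0201% were called lower at an adjusted p under 0.05 and 0% higher. The called gene was RT1-A2, with an adjusted p of 0.0118, a class I histocompatibility gene named after its values were seen.

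**Figure D2:**
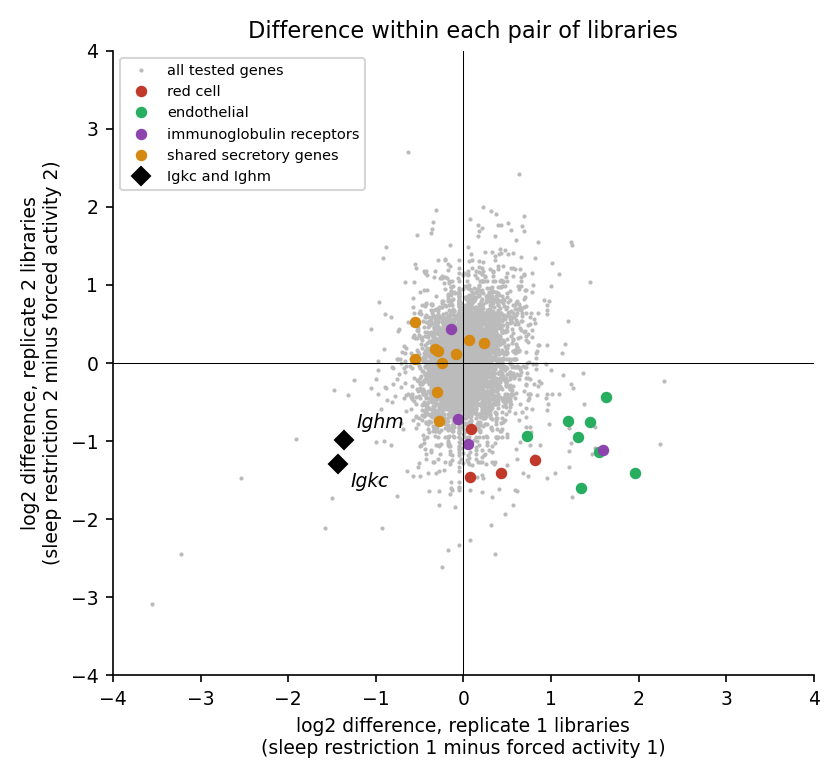
Log2 difference of sleep restriction over forced activity for each tested gene, in the replicate 1 libraries (horizontal) and in the replicate 2 libraries (vertical). Igkc and Ighm, chosen for this contrast, are low on both axes. The endothelial genes lie right of 0 and below 0, and the red cell genes are near or right of 0 and below 0.

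The ratio of the 2 chains had wide counting intervals, which overlapped among all libraries. The ratio of Ighm to Igkc counts was 0.977 and 1.44 in sleep restriction 1 and 2, and 0.887 and 1.12 in forced activity 1 and 2. The exact 95% intervals from the counts were 0.457 to 1.94 and 0.762 to 2.80 under sleep restriction, and 0.588 to 1.37 and 0.765 to 1.71 under forced activity. Both chains were chosen for being lower in this contrast, so nothing is read from how alike the ratio is between the groups. The ratio is one of read counts, not of molecules, since the length of the counted exons is not given here. Added together, the 2 chains came to 70.8 and 89.5 CPM under sleep restriction and to 201 and 204 CPM under forced activity.

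Both entries cover more than a constant part. In build rn6 the Igkc entry runs over 186 kb of chromosome 4, from 98337367 to 98523473, and the Ighm entry over 608 kb of chromosome 6, from 138054662 to 138662511. The Igkc interval overlaps 2 other entries, both at 0 in every library. The Ighm interval overlaps 12, of which 10 were at 0, and the remaining 2 together held 4 counts under sleep restriction and 8.1 under forced activity. Immunoglobulin segments resemble one another and are rearranged in B cells, so which segments gave the counted reads is uncertain, and reads of other mu or kappa loci may be in or missing from these rows.

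Other immunoglobulin entries hardly registered. Of 8 further entries with an immunoglobulin symbol, only Igh-1a, a heavy chain entry, was above 0. It lies inside the Ighm interval, from 138092131 to 138093643, and had 0.4 and 3 counts under sleep restriction against 0.8 and 6.2 under forced activity. These groups overlapped, and the replicate 2 library was the higher one in each group. The heavy chain entry Ighg, the variable segments Ighv2-7, Ighv8-2, Ighv12-3, Igkv4-91 and Igkv5-48, and the surrogate light chain Igll1 were listed at 0 in every library.

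Entries with a clone-based or LOC symbol within 6 Mb of the loci were summed as a set. Around Igkc there were 50, of which 10 were above 0, and they summed to 5.7 and 0 counts under sleep restriction and to 3.3 and 4.2 under forced activity. Their highest were LOC691113, with 6.7 counts over all libraries, and AABR07060778.1, with 2.7. Around Ighm there were 136, of which 28 were above 0, with sums of 25.8 and 22 under sleep restriction and 24.2 and 26.3 under forced activity. Most of these came from LOC100910833, with 52.1 counts over all libraries, and LOC103692716, with 21.8, both over 3 Mb from the middle of Ighm. Without these, a choice made after their values were seen, 26 entries above 0 remained around Ighm. They summed to 4.5 and 1 counts under sleep restriction and to 10 and 8.9 under forced activity. Both sleep restriction libraries were then below both forced activity libraries, an order that the full set did not show. Taken singly, 12.3% of all entries with a count had that order. No library held more than 4.6 counts of any of the 26, in LOC100363779. Without LOC691113 and AABR07060778.1, the entries around Igkc summed to 0.6 and 0 counts under sleep restriction and to 0.6 and 2.6 under forced activity.

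Tested genes around the loci, LOC100910833 among them and otherwise with ordinary gene symbols, had a median change near 0 at each locus. Of 28 tested genes within 6 Mb of Igkc, 11 had a change below 0 on the log2 scale; their median was 0.06, and they ranged from -0.61 for Gadd45a to 0.76 for Rmnd5a. Of 20 tested around Ighm, 8 were negative, with a median of 0.08 and a range from -0.60 for Aspg to 0.50 for Dync1h1. The genes named here were chosen after their values were seen. In edgeR, DESeq2 and limma-voom 0 of them were called, while 2 around Igkc (Mat2a and Rmnd5a) and 0 around Ighm had an unadjusted p under 0.05 in edgeR. The groups were separated downward in 4 of the 28 and in 0 of the 20, beside 15.3% of all tested genes. They were separated upward in 6 of the 28 and in 4 of the 20, beside 17.2% of all tested genes.

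**Figure D3:**
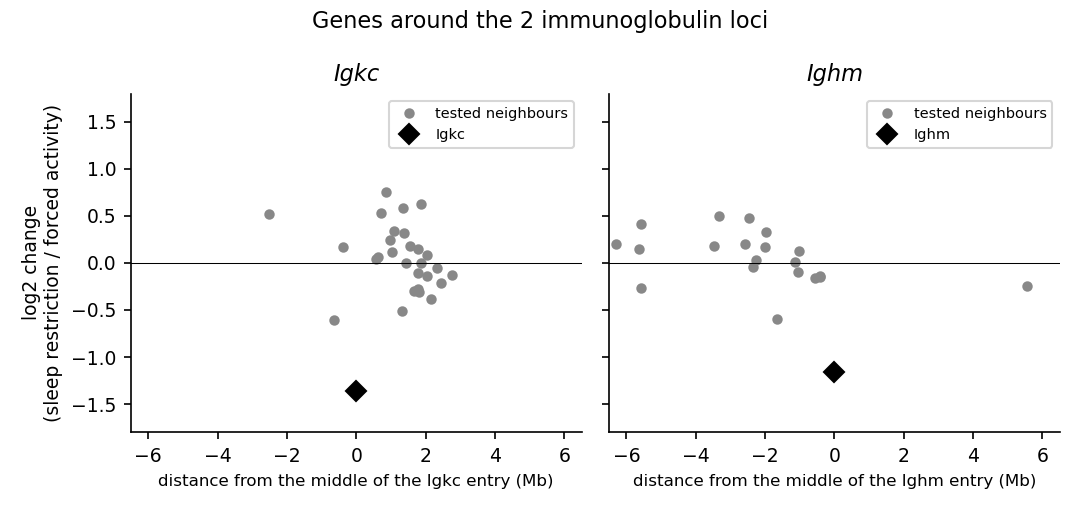
Log2 change of sleep restriction over forced activity for tested genes within 6 Mb of the Igkc and Ighm entries, by distance in Mb from the middle of the entry. Each diamond, at -1.36 for Igkc and -1.15 for Ighm, lies below all neighbours, whose lowest values are -0.61 and -0.60. Igkc and Ighm were chosen on the change and p of this contrast, so nothing is read from their place below these neighbours.

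Plasma cell transcripts gave a mixed and thinly counted picture. Igj, the joining chain that links IgM and IgA units and is now called Jchain, had 2 and 4 counts under sleep restriction against 5.4 and 5.3 under forced activity. Mzb1, a chaperone of immunoglobulin assembly, had 0.3 and 0 counts under sleep restriction against 1.1 and 1.6 under forced activity. Both were thus lower in each sleep restriction library than in either forced activity library, as were 12.3% of the 15040 entries with any count. Nearly all values of sleep restriction 2 are whole, so a level under 1 count cannot show there as a fraction. This bears on Mzb1 here and on Irf4 below. The exact 95% Poisson intervals of the group sums overlapped, at 2.20 to 13.1 and 5.49 to 19.7 counts for Igj, and at 0 to 3.69 and 0.619 to 8.77 for Mzb1.

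The rest of the plasma cell list showed no such separation except for Irf4. That factor of plasma cell differentiation had 0.4 and 0 counts under sleep restriction against 0.5 and 0.5 under forced activity, less than 1 count in any library. Cd38, a surface enzyme that many cell types carry, had 5.7 and 3 counts under sleep restriction against 2.3 and 6.5 under forced activity. Pim2, a survival kinase, had 3.3 and 1 counts under sleep restriction against 3.7 and 2.5 under forced activity. Prdm1, the repressor that drives plasma cell fate, had 0.7 and 1 counts under sleep restriction against 0.4 and 1 under forced activity.

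Of the 11 plasma cell symbols found, Eaf2, Derl3 and the receptor Tnfrsf13b were at 0 everywhere, and the survival receptor Tnfrsf17 reached 0.1 in 1 library. Summed over the list, the level was 26.1 and 18.3 CPM under sleep restriction, against 28.6 and 33.9 CPM under forced activity. The groups missed overlap by a narrow margin, at 12.8 counts in sleep restriction 1 against 13.5 in forced activity 1. Among single entries with a count, 12.3% had both sleep restriction libraries lower. The log2 ratio of the list was -0.49. Without Cd38 and Pim2, left out after their values were seen because other cells also make them, it was -0.85. None of these genes passed the expression filter, so none was tested.

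B cell identity genes were not lower as a group. The 23 symbols found, of 24 listed, summed to 16.2 and 16 counts under sleep restriction against 10.4 and 17.6 under forced activity. In CPM this was 33.0 and 32.6 under sleep restriction against 22.0 and 34.3 under forced activity, a log2 ratio of 0.22 between group means. The sign rests on forced activity 1, since without that library the ratio was -0.065, and it was 0.57 without forced activity 2. Among the 21 above 0, 6 had both sleep restriction libraries above both forced activity libraries and 3 had both below, where 15.2% and 12.3% of all entries with a count did.

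Cd180, Cd37, Ms4a1, Cd79a and Faim3 were among those 6, and each of the 6 had at most 3 counts in any library. Ms4a1, the B cell surface protein CD20, had 0.6 and 2 counts under sleep restriction and was at 0 in both forced activity libraries. Cd79a, the signalling chain that accompanies membrane immunoglobulin, had 0.5 and 1 counts under sleep restriction against 0.1 and 0 under forced activity. Cd180, a receptor related to the toll-like receptors, had 2.6 and 3 counts under sleep restriction against 1.3 and 1.1 under forced activity. All these values are within a few reads, and a group sum of 0 counts still allows up to 3.69 by its exact 95% Poisson interval.

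The 3 with both sleep restriction libraries lower were Btk, Blk and Tnfrsf13c. All 3 were at 0 in sleep restriction 2, whose values are nearly all whole. Btk, the kinase downstream of the B cell receptor, had 0.5 and 0 counts under sleep restriction against 0.9 and 1.2 under forced activity, and the other 2 stayed below 1 count in every library. Cd22, an inhibitory co-receptor and the list's most counted gene, had 4.1 and 4 counts under sleep restriction against 2.4 and 8 under forced activity. Pax5, the factor that maintains B cell identity, and Vpreb3 were at 0 in every library. In whole tissue, fewer cells of a type and less RNA per cell cannot be told apart.

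**Figure D4:**
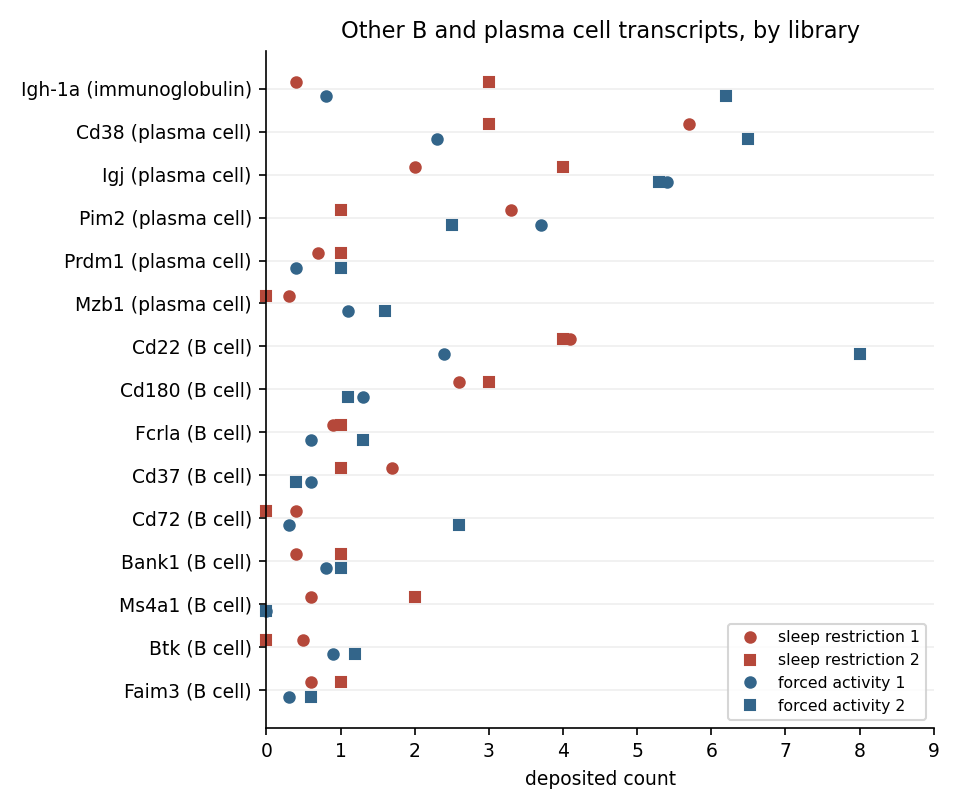
Deposited counts of the other immunoglobulin, plasma cell and B cell entries with at least 2 counts over the 4 libraries. Red marks sleep restriction and blue forced activity, with circles for replicate 1 and squares for replicate 2. Igj and Mzb1 show both red marks left of both blue marks, while Ms4a1, Cd180 and Cd37 show the opposite order.

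Together Igkc and Ighm held 54.2% and 61.1% of the counts over these chains and the 42 other immunoglobulin, B cell and plasma cell entries under sleep restriction, against 79.3% and 71.8% under forced activity. The other 42 entries summed to 29.4 and 28 counts under sleep restriction and to 24.7 and 41.2 under forced activity, so those groups overlapped. Since the pair was chosen for being lower under sleep restriction, nothing is read from its lower share.

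Genes that serve secretion in plasma cells and hepatocytes alike had a median change near 0. All 10 were tested, with changes below 0 in 6, above 0 in 4 and a median of -0.06 on the log2 scale, and edgeR, DESeq2 and limma-voom called 0, as at an unadjusted p under 0.05 in edgeR. Xbp1, the factor of the secretory stress response, averaged 264 ± 13.9 CPM under sleep restriction and 284 ± 85.3 CPM under forced activity (log2 change -0.10, SE 0.24, edgeR adjusted p 0.999). Sdc1, the surface proteoglycan by which plasma cells are sorted and which hepatocytes also make, had 0.01 (SE 0.21, edgeR adjusted p 0.999). Ssr4, a subunit of the translocon-associated complex, had the lowest value of the list, at -0.45 (SE 0.29), and Edem1 the highest, at 0.25 (SE 0.24).

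Receptors and carriers of immunoglobulin came next. Pigr, the receptor that carries polymeric antibody across hepatocytes into bile, averaged 4613 ± 618 CPM under sleep restriction and 4158 ± 614 CPM under forced activity (log2 change 0.15, SE 0.20, edgeR adjusted p 0.999). Fcgrt, the neonatal Fc receptor that recycles IgG and albumin, had 72.1 and 46 counts under sleep restriction against 72.4 and 79.7 under forced activity (-0.35, SE 0.24, edgeR adjusted p 0.999). Fcer1g, the signalling chain of several Fc receptors, had 12.7 and 6 counts under sleep restriction against 12.2 and 14.9 under forced activity (-0.43, SE 0.34, edgeR adjusted p 0.999).

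Fcgr2b, the inhibitory IgG receptor that liver sinusoidal endothelium makes in quantity, spread within the groups. It had 51.4 and 37 counts under sleep restriction against 14.9 and 85.6 under forced activity (log2 change -0.17, SE 0.68, edgeR adjusted p 0.999). Its difference was 1.59 in the replicate 1 libraries and -1.11 in the replicate 2 libraries. Of the 9 listed receptors and carriers these 4 were tested, and 0 were called by edgeR, DESeq2 or limma-voom or had an unadjusted p under 0.05 in edgeR.

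Signals that keep or attract B cells were also measured. Cxcl12, a chemokine that holds plasma cells in their niches, was the only one of 7 to be tested, with 124.1 and 103 counts under sleep restriction against 125.4 and 125.5 under forced activity (log2 change -0.14, SE 0.21, edgeR adjusted p 0.999). Tnfsf13, the survival factor APRIL, had 6.1 and 6 counts under sleep restriction against 7.5 and 7.1 under forced activity. Cxcl13, which guides B cells into follicles, had 2.9 and 4 counts under sleep restriction against 6.3 and 2.5 under forced activity. Il6 and Ccl28 were at 0 in every library.

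Summed markers of other blood cells, Kupffer cells and endothelium overlapped between the groups. Their means were lower under sleep restriction for red cell (log2 ratio -0.52), T and NK cell (-0.32) and pan-leukocyte genes (-0.12). So were those of platelet genes (-0.56) and of neutrophil and monocyte genes (-0.40), on few counts. Kupffer cell genes (0.20) and endothelial genes (0.11) were higher in the mean. T and NK cell genes summed to 55.4 and 34.6 CPM under sleep restriction against 46.6 and 65.4 CPM under forced activity, and pan-leukocyte genes to 164 and 140 CPM under sleep restriction against 129 and 201 CPM under forced activity. The T cell receptor chain Cd3e reached 0.1 in 1 library and Cd5 was at 0 in every library. Ptprc, the pan-leukocyte surface protein CD45, had 9.5 and 14 counts under sleep restriction against 7 and 11.5 under forced activity (log2 change 0.29, SE 0.33, edgeR adjusted p 0.999). The other tested pan-leukocyte genes had log2 changes of 0.16 for Cd48, -0.19 for Laptm5 and -0.58 for Arhgdib.

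Red cell genes, a measure of blood left in the tissue, summed to 1241 and 761 CPM under sleep restriction against 932 and 1936 CPM under forced activity. Kupffer cell genes summed to 1029 and 694 CPM under sleep restriction against 655 and 846 CPM under forced activity, and endothelial genes to 582 and 309 CPM under sleep restriction against 238 and 587 CPM under forced activity. In each of these lists the groups overlapped, and forced activity 2 was above forced activity 1 while sleep restriction 1 was above sleep restriction 2. Igkc was nearly level within each group. Ighm was higher in the replicate 2 library of each group, so it shared that order in forced activity only. The chains were chosen on the change and p of this contrast, which favours levels that are even within groups. Nothing is therefore read from how they differ from these lists. Neutrophil and monocyte genes had at most 4.5 summed counts in any library and platelet genes at most 9.3.

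**Figure D5:**
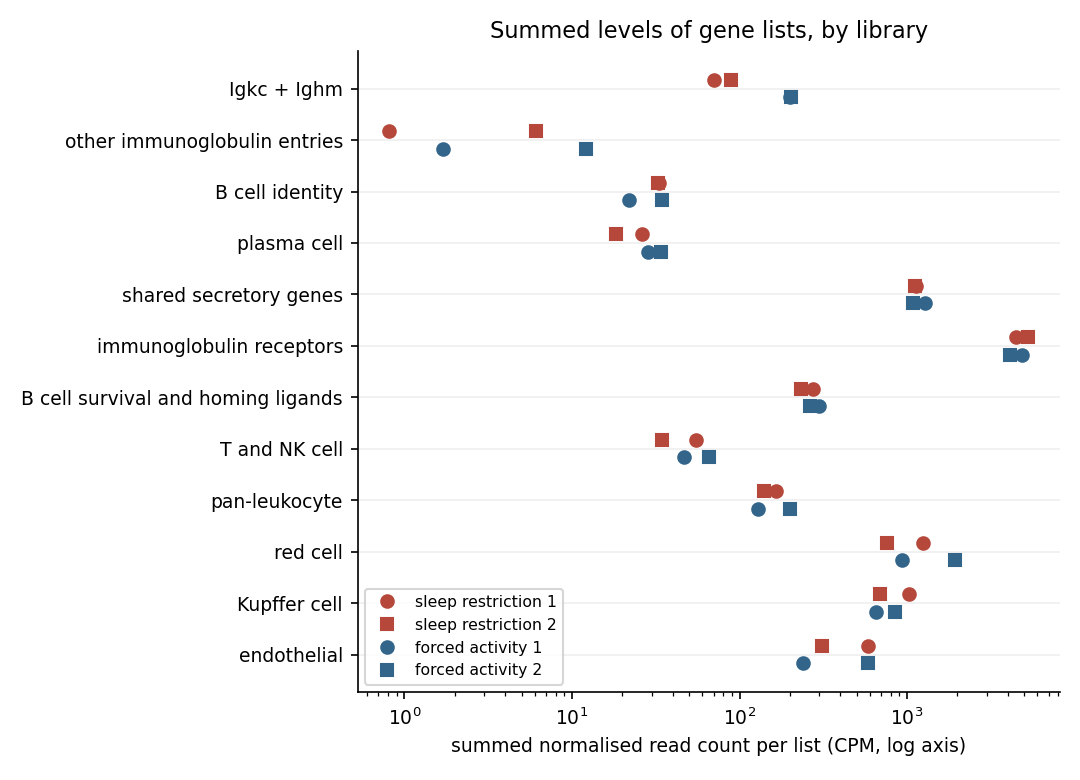
Summed CPM of each gene list by library on a log axis, sleep restriction above forced activity within each row. The sum of Igkc and Ighm is 70.8 and 89.5 CPM under sleep restriction, left of 201 and 204 CPM under forced activity. The plasma cell row, at 26.1 and 18.3 CPM against 28.6 and 33.9 CPM, has the same order by a narrow margin. Its counts were 12.8 in sleep restriction 1 and 13.5 in forced activity 1. The B cell, T and NK cell, pan-leukocyte, red cell, Kupffer cell and endothelial rows overlap between the groups.

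Across all context lists 51 genes were tested, and 0 were called by edgeR, DESeq2 or limma-voom. At an unadjusted p under 0.05 in edgeR there were 2, the hepatocyte genes Apoa1 and Hnf4a. The 10 tested hepatocyte genes had a median log2 change of 0.04.

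The genes whose level over the 4 libraries ran most like that of each chain were found by the root mean square distance between centred log2 profiles. For Igkc these were Ier3 at 0.19, Dusp1 at 0.20, Nipal1 at 0.24, Ighm at 0.25 and Map2k6 at 0.25. For Ighm these were Lox at 0.23, Map2k6 at 0.23, Igkc at 0.25, Pyroxd2 at 0.25 and Per3 at 0.25. Among 4985 genes Ighm ranked 4 for Igkc, and Igkc ranked 3 for Ighm. Both chains were chosen on the change and p of this contrast, so nothing is read from their nearness. With 4 libraries in 2 groups, any gene of the same order and size of difference is near by this measure.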

How the data were processed

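Messenger RNA of rat liver was sequenced in 2 libraries of sleep restriction and 2 of forced activity. TRIzol extraction, mRNA purification, fragmentation and an Illumina library kit are recorded, per the labels' protocols. The submitters' processing notes name CASAVA, STAR 2.4.1d and rn6 without saying what each was used for. How reads were counted is not stated in them. The authors deposited estimated counts per Ensembl gene with near-equal column totals. Their multiples of 0.1, and words in the table's own name (sense strand, an average of 10), read as means over random draws to 1 depth, which the labels do not describe. Averaged draws vary less than plain counts, so Poisson intervals are wide for those columns.

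Rounded counts went into edgeR 4.0.16 under R 4.3.3 (TMM factors, filterByExpr with a minimum count of 10, robust quasi-likelihood, Benjamini-Hochberg adjustment, calls at an adjusted p under 0.05). The test was tried on simulated data. CPM uses the deposited values over TMM-scaled totals of tested genes. Log2 changes are sleep restriction over forced activity with a prior count of 2. SE is the change over the square root of F. DESeq2 1.42.0 and limma 3.58.1 were alternatives. The exact two-sided permutation p of 2 against 2 libraries cannot go below 0.333, so list sums were not tested. Names were drawn under a rule. It allows both chains, up to 8 other immunoglobulin entries and each list's tested or most counted genes. B and plasma cell genes at 0 and the 5 nearest profiles are also in it. Not every gene that it allows is named, such as the tested Kupffer cell, endothelial and red cell genes. Others were chosen after their values were seen. The genes and lists were chosen with earlier results of these data known. Replicate numbers were not taken to pair animals, as no label does so. A gene of the B cell list is not reported here.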

Additional observations from a re-analysis of the deposited data

How the results depend on the processing

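The direction for Igkc and Ighm was negative under all 14 alternatives run for each. Igkc lay between -1.44 and -1.29 with 1 library left out and at -1.47 with DESeq2, whose change is not shrunken, and Ighm lay between -1.47 and -0.91 with 1 library left out. With a replicate block the changes were -1.36 for Igkc and -1.15 for Ighm. The same-numbered libraries deviated with a correlation of 0.207 over genes, and with only 2 pairs and no label the numbers were not taken as paired. The count of called genes was 1, and it was 2 with DESeq2 (RT1-A2 and Hhex), 5 with a replicate block (RT1-A2, Igkc, Cish, Hhex and Rgs3) and 5 without a gene filter (RT1-A2, Igkc, Dusp1, Map1b and Rgs3). Since Igkc was chosen for this contrast, nothing is read from its place there. The count was 0 with limma-voom and 0 without robust estimation, with 186 and 180 genes at an unadjusted p under 0.05, and 0 to 0 in edgeR with 1 library left out, where 48 to 409 genes had such a p and the lone library takes its spread from the group of 2. The summed B cell log2 ratio ran from -0.065 to 0.57 with 1 library left out, was 0.46 without Cd22 (added after seeing the data) and changed sign without forced activity 1. The plasma cell ratio ran from -0.77 to -0.26 with 1 library left out and was -0.85 without Cd38 and Pim2. That of the other immunoglobulin entries, which rests on Igh-1a alone, ran from -3.08 to 1.03, the last without forced activity 2. The cause of these differences was not tested. Depth limits what can be said of B and plasma cell genes: 1 count was worth between 1.95 and 2.12 CPM.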
